A study of Saccharomyces cerevisiae with 9 samples.

Results

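The UTP, NOP and RRP genes of Saccharomyces cerevisiae encode proteins that make ribosomes in the nucleolus. Of the 6629 open reading frames in the count tables, 53 carry a standard symbol of this form in the annotation of build R64, namely UTP, NOP or RRP followed by a number. They comprise 18 UTP, 17 NOP and 18 RRP genes and lie on 14 chromosomes. Transcripts were measured by RNA sequencing in 3 strains with 3 libraries each, all from cells in exponential growth in SD medium. Every strain carries the alleles given as HISDel1, LEU2Del0, MET15Del0 and URA3Del0. In the control strain the nourseothricin-resistance marker NATR sits at HO, the mating-type endonuclease gene (HO::NATR). In the overexpression strain NATR and the strong constitutive TEF promoter precede YET3 (NATR::TEFpr-YET3), and in the deletion strain NATR replaces YET3 (DelYET3::NATR). YET3 encodes a membrane protein of the endoplasmic reticulum, and the series is about sterol synthesis at organelle contact sites. The labels do not say whether repeats are separate cultures or clones, and a p-value therefore weighs a difference against the spread of repeats that may be partly technical.

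Ribosome assembly starts on the nascent ribosomal RNA precursor, where UTP proteins and the U3 small nucleolar RNA form the small subunit processome. Box C/D particles, built on Nop1, Nop56 and Nop58, methylate the RNA, and box H/ACA particles, which contain Nop10, convert uridines to pseudouridines. Other NOP and RRP proteins shape the large subunit, and several RRP proteins are subunits of the RNA exosome, which trims and degrades RNA. In yeast these genes are known for being transcribed together with cell growth, through promoter elements named PAC and RRPE. The repressors Dot6 and Tod6 bind PAC, and Stb3 binds RRPE.

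Libraries held between 223189 and 1634021 counts, so that 1 count stood for 0.612 to 4.48 CPM, the usual unit of counts scaled to library size. YET3 was at 477, 477 and 479 CPM in the control libraries and at 2261, 2029 and 1341 in the overexpression libraries 1 to 3. It was still counted in the libraries labelled deletion, at 728, 328 and 639.5 CPM, so this row goes against that label if it counts the deleted part, and every direction given for the libraries labelled deletion rests on that label. HO had 13 to 46 counts in the control libraries and 0 to 5 in the other 6. It was thus counted most in the strain whose label puts the marker at HO, and the cause was not tested. LEU2, MET17 (MET15) and URA3 had 0 to 3 counts in any library, while HIS3 was counted in all 9. Overexpression 3, deletion 1 and deletion 3 stood apart from the other 6 libraries on the first principal component, at 27.7 to 38.9 against -25.7 to -10.6, and no control library is among them. The same 3 libraries had the lowest share of counts in the 5 YLR154W rows, which lie in the ribosomal DNA (0.111% to 0.267%, against 0.817% to 2.42%). The part of this split in the results was not tested, and values without the 3 libraries are given beside the main results.

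The promoters of the 53 genes were searched for PAC and RRPE. Both motifs are known from promoters of ribosome biogenesis genes, so their frequency here describes the members and is no independent finding. Windows of 300 bases, from 250 before to 50 after the annotated start codon, were read from the RefSeq genome sequence of build R64. The PAC core was searched as GATGAG, a longer PAC form as GCGATGAG, which contains the core, and the RRPE core as AAAAATTT, each on both strands. The RRPE letters on opposite strands can overlap each other in a run of A followed by T. The PAC core was present in 44 of 53 member windows (83.0%) and in 19.98% of all 5937 windows searched. The longer PAC form was present in 24 member windows (45.3%, against 3.98% of all windows) and the RRPE core in 39 (73.6%, against 14.3%). Both cores occurred together in 33 members (62.3%) and in 5.69% of all windows. These shares are descriptions of letters in a window and do not show that a factor binds there.

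Most matches in the member windows lay in the same stretch of the promoter. Positions were recorded for members only, so this placement cannot be called particular to them. Counted from the start codon, with negative positions before it, the median first base was -119 for the PAC core and -134 for the RRPE core. Of 65 PAC core matches 53, and of 54 RRPE core matches 48, began between 200 and 50 bases before the start. The role groups differed in these counts. Of the 7 exosome genes 3 had a PAC core, 3 had an RRPE core and 1 had both, and of the 3 UTP-C genes 1 had a PAC core, 1 had an RRPE core and 0 had both. In the large subunit group 11 of 14 genes held both cores, and in the group of UTP-A genes 5 of 6. RRP45, RRP46 and UTP22 were the members with neither core in the window.

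**Figure D1:**
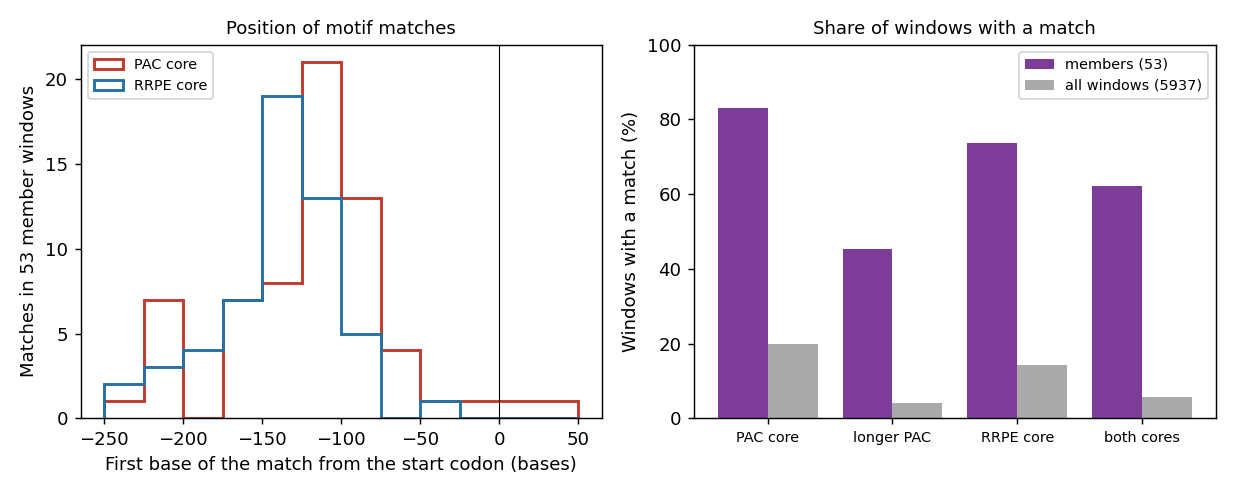
Left, the number of PAC core and RRPE core matches in the 53 member windows by the position of their first base relative to the start codon, in bins of 25 bases. Right, the percentage of windows with a match among the 53 members (purple) and among all 5937 windows (grey); the PAC core is in 83.0% of member windows and in 19.98% of all windows.

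Promoters of 4 members are printed to show these arrangements in the genes that the results below turn on, 5′ to 3′ on the strand of the gene, from build R64. Capitals mark PAC and RRPE cores on either strand. NOP56, NOP7 and NOP1 are among the most abundant members, and UTP4 has its PAC core inside the coding sequence.
NOP56 (chrXII:545847-546146, plus strand): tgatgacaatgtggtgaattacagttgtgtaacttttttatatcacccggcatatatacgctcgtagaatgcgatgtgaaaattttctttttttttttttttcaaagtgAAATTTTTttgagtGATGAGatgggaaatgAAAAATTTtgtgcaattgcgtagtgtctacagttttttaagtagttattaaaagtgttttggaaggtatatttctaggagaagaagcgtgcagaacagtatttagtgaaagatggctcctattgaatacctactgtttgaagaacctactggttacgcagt
NOP7 (chrVII:695167-695466, plus strand): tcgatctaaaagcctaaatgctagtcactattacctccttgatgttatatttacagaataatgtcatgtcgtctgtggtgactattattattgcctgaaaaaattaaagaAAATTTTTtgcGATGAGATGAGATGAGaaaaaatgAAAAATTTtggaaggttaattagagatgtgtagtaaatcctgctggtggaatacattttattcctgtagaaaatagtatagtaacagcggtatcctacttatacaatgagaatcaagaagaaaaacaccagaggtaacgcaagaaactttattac
NOP1 (chrIV:427114-427413, plus strand): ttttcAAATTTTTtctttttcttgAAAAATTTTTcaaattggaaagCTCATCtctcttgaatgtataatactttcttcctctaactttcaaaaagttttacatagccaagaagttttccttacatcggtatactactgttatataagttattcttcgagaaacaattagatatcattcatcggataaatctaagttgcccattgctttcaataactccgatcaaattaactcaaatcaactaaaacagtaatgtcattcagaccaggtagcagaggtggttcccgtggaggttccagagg
UTP4 (chrIV:1116714-1117013, minus strand): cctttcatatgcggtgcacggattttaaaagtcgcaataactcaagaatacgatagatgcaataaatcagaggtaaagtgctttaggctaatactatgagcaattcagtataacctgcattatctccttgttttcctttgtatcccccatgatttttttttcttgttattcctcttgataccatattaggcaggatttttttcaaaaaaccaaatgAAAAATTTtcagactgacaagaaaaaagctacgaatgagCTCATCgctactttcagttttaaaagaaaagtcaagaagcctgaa
In NOP56 a PAC core with its first base at -127 lies between RRPE cores at -141 and -111. NOP7 has the same order, with 3 overlapping PAC cores at -129, -124 and -119 between RRPE cores at -140 and -105. In NOP1 both motifs lie farther out, with the PAC core at -204 and RRPE cores at -245, -226 and -224.

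The members differed widely in level. Over all 9 libraries 46 of 53 had a mean below 100 CPM, and the median member stood at 43.2 CPM. NOP56, the core protein gene of box C/D particles, was highest at 409 CPM, followed by NOP10 at 295, NOP7 at 217, NOP1 at 177 and NOP58 at 159 CPM. The lowest was UTP18 of the UTP-B complex at 7.27 CPM. Per kilobase of coding length, a scale that allows levels of different genes to be compared if reads were counted along the whole gene, NOP10 led with 1669 CPM per kilobase. NOP10 is also the shortest member, with 177 bases, and the sources used here do not give the part of the gene that was counted. On the same per-length scale NOP56 followed at 270.3, NOP1 at 179.5 and NOP15 at 148, and UTP18 was again lowest at 4.07 CPM per kilobase. By role the median level was 141 CPM per kilobase for the 4 box C/D and U3 genes, 48.3 for the large subunit group, 39.1 for the exosome, 19.96 for other small subunit factors, and 17.0, 15.8 and 9.75 for UTP-A, UTP-B and UTP-C. Without scaling to length the medians were 168, 50.3, 41.9, 36.8, 45.1, 32.0 and 36.2 CPM in this order. The order of roles thus depends on the scale, with UTP-A above the exosome and UTP-C above UTP-B when length is left out.

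Counts in all 53 rows together made up between 0.289% and 0.411% of a library. The share was 0.300%, 0.334% and 0.327% in control libraries 1 to 3 and 0.289%, 0.314% and 0.383% in overexpression libraries 1 to 3. It was 0.411%, 0.364% and 0.380% in the libraries labelled deletion 1 to 3. Exact 95% binomial intervals, which cover counting error only, ran from 0.304% to 0.352% in control 3, the shallowest library, and from 0.401% to 0.421% in deletion 1, the deepest. The libraries labelled deletion all lay above the control range, as did overexpression 3, while overexpression 2 lay within it and overexpression 1 below it. Without NOP56 and NOP7, described below, the summed level was 2567, 2774 and 2805 CPM in the control, 2513, 2684 and 2919 CPM in overexpression, and 2989, 3122 and 3235 CPM in the libraries labelled deletion. The order of the libraries labelled deletion then changed, and all of them still lay above the controls. The pattern was not particular to the members. Cytosolic ribosomal protein genes held 25.7% to 27.3% of counts in the control libraries and 29.2%, 28.3% and 29.3% in deletion 1 to 3. They held 26.1%, 26.8% and 29.5% in overexpression 1 to 3. In bulk libraries a change in the mix of cells in the culture and a change of RNA per cell cannot be told apart.

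**Figure D2:**
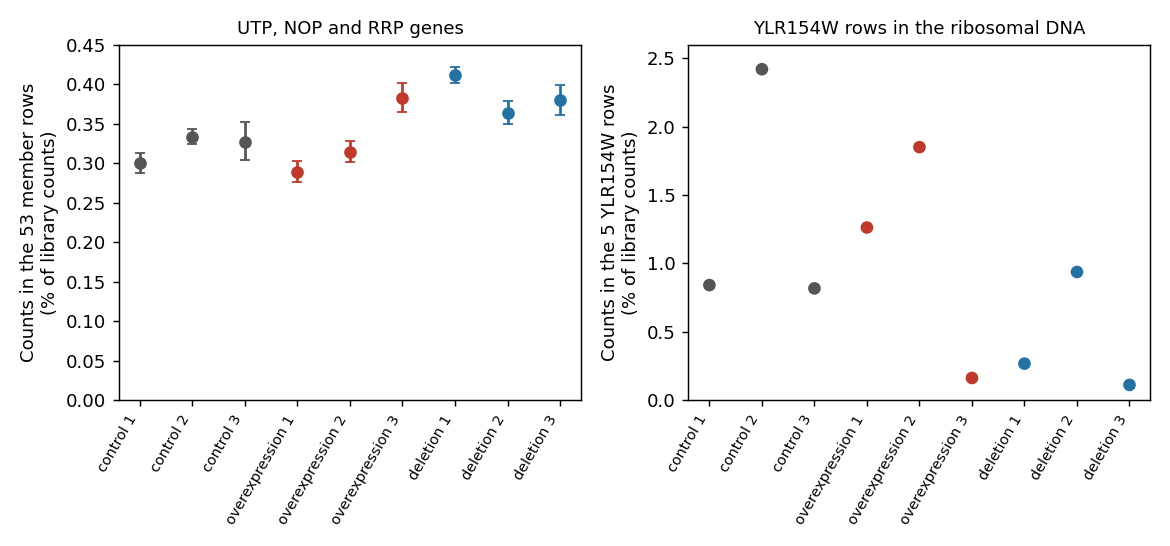
Left, counts in the 53 member rows as a percentage of all counts of each library, with exact 95% binomial intervals. Right, counts in the 5 YLR154W rows of the ribosomal DNA as a percentage of library counts; overexpression 3, deletion 1 and deletion 3 are lowest there (0.162%, 0.267% and 0.111%), and they are 3 of the 4 libraries above the control range on the left.

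The sums of the role groups did not all move alike between the strains, and differences between roles were not tested. The 7 exosome genes summed to between 284 and 322 CPM in every library, with 309 ± 9.67 CPM in the control, 308 ± 14.9 in overexpression and 300.4 ± 16.6 in the libraries labelled deletion (SD, n = 3 each). The 14 large subunit genes summed to 907 ± 129.97 CPM in the control, 894 ± 179.8 in overexpression and 1096 ± 122 in the libraries labelled deletion (SD, n = 3 each). Box C/D and U3 genes summed to 626 ± 121, 780 ± 148 and 867 ± 119 CPM in the same order, and NOP56 was the largest term of this sum in every library. The 4 UTP-B genes summed to 103 ± 6.87, 108 ± 11.7 and 132 ± 8.36 CPM (SD, n = 3 each), and each library labelled deletion lay above each control library. The same held for the 14 other small subunit genes, at 623 ± 15.5, 616 ± 40.8 and 738 ± 39.3 CPM (SD, n = 3 each). It also held for the box H/ACA gene and for the 3 UTP-C genes, at 117 ± 5.87, 127 ± 22.9 and 137 ± 18.4 CPM for UTP-C. It did not hold for the sums of the box C/D and U3, large subunit, UTP-A and exosome genes.

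Repeats of a strain were compared with counting error. The chi-square per degree of freedom of the repeats within their groups had a median of 1.75 over the 49 members tested, against 2.37 over all 5090 genes tested, where 1 is counting error alone. It exceeded 5 for 4 members, NOP56 at 31.9, NOP7 at 14.9, NOP58 at 13.3 and NOP10 at 8.10, and was at most 4.79 for the rest. These are 4 of the 5 most abundant members, for which counting error is smallest. NOP56 had 255, 366 and 219.8 CPM in control libraries 1 to 3, 334, 375 and 678 in overexpression libraries 1 to 3 and 620.3, 313 and 525 CPM in deletion libraries 1 to 3. It was high in overexpression 3, deletion 1 and deletion 3, the libraries that stood apart, and the other 6 lay between 219.8 and 375 CPM. NOP58, whose protein pairs with Nop56 in box C/D particles, had 122, 228 and 154 CPM in the control, 137, 178 and 129 in overexpression and 96.4, 188 and 197 CPM in the libraries labelled deletion. It did not share the pattern of its partner, and its lowest value was in deletion 1. The ratio of the NOP56 count to the NOP58 count was between 1.43 and 2.66 in 7 libraries, and 5.25 in overexpression 3 and 6.44 in deletion 1.

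NOP7, whose protein forms a large subunit assembly complex with Erb1 and Ytm1, had 141, 168 and 185 CPM in the control, 118, 169 and 291 in overexpression and 364, 194 and 325 CPM in the libraries labelled deletion. Again overexpression 3, deletion 1 and deletion 3 were the 3 highest libraries. Its partners, named after their values were seen, did not follow it together. ERB1 had 40.8, 52.7 and 65.9 CPM in the control, 53.4, 42.6 and 26.3 in overexpression and 22.5, 65.2 and 23.98 CPM in the libraries labelled deletion, with the 3 libraries lowest of all, and YTM1 was high in overexpression 3 and deletion 3 (52.5 and 56.0 CPM) but not in deletion 1 (27.2 CPM). NOP10 had 266, 256 and 219.8 CPM in the control, 210.3, 227 and 394 in overexpression and 341, 319 and 426 CPM in the libraries labelled deletion, so that deletion 2, which did not stand apart, was also above every control. NOP1, the methyltransferase gene, had 176, 157 and 163 CPM in the control, 172, 170.2 and 127 in overexpression and 163, 223 and 239.8 CPM in the libraries labelled deletion. It was lowest in overexpression 3 and highest in deletion 3, so it did not follow the libraries that stood apart.

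**Figure D3:**
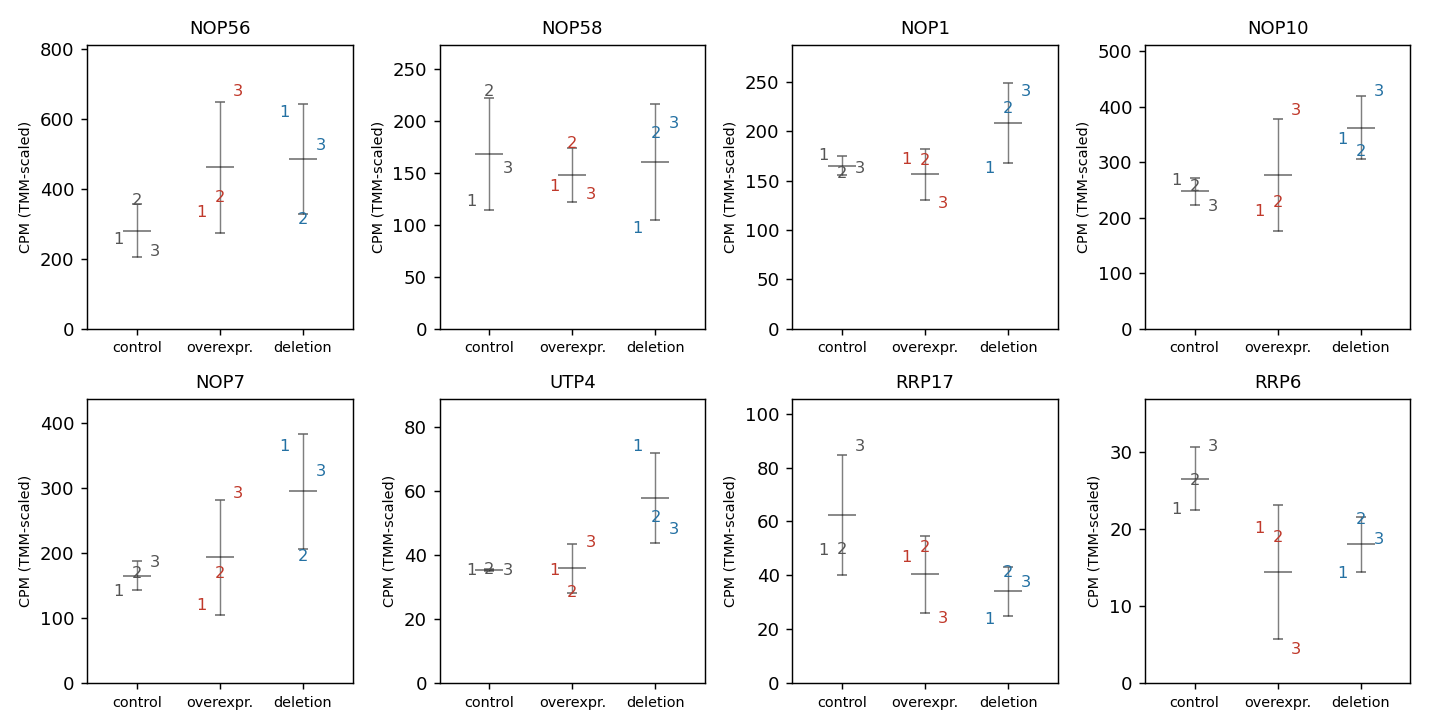
TMM-scaled CPM of 8 members in every library, with the replicate number as the plotting symbol and bars for the mean ± SD of 3 libraries of a strain; deletion means the libraries labelled YET3 deletion. NOP56 and NOP7 are highest in overexpression 3, deletion 1 and deletion 3, whereas UTP4 in deletion 2 (51.6 CPM) is also above every control library (35.2 to 35.5 CPM).

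The first comparison asked whether overexpression of YET3 goes with other levels of ribosome biogenesis transcripts. No difference passed the test for any member. Of the 53 genes 49 passed the filter on low counts and were tested, and 0 were called higher or lower by edgeR's quasi-likelihood test at an adjusted p of 0.05, while 0.845% of all genes tested were called. The number called was also 0 without the 3 libraries that stood apart (50 members tested, against 3.15% of all genes called) and with a term for them (against 2.22%). At an unadjusted p under 0.05 there were 0 members in either direction, against 3.89% of all genes higher and 3.22% lower, and the DESeq2 Wald test also called 0, against 1.2% of all genes. Of the 49 members 1 reached an unadjusted p under 0.05 there (2.04%, against 5.95% of all genes). The members RRP9, RRP36, UTP18 and UTP30 were not tested, with 55 to 87 counts over all 9 libraries and means of 7.27 to 12.8 CPM.

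The members' median log2 fold change was 0.04, with 28 of 49 above 0, beside a median of -0.0019 over all genes tested. This median turned to -0.0063 with library totals in place of TMM scaling, to -0.063 without the 3 libraries that stood apart, to -0.033 with a term for them, to -0.071 without overexpression 3 and to -0.019 without control 1. For 34 of 49 members (69.4%, against 53.6% of all genes) the 95% interval of the log2 fold change lay within -1 and 1. This leaves out changes of 2-fold or more in either direction. For the other 15 such a change was not excluded by the interval. Values of the groups did not overlap for 2 members that were higher in overexpression, UTP9 and RRP43 (4.08%, against 8.51% of all genes), and 2 that were lower, RRP3 and RRP6 (4.08%, against 8.47%). Both shares are below those of all genes.

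The members with the largest values in either direction came from different roles. NOP56, with the library values given above, averaged 280.1 ± 76.3 CPM over the control and 462 ± 188 CPM over the overexpression libraries (SD, n = 3 each). The log2 fold change was 0.70 (95% interval -0.018 to 1.42, adjusted p = 0.708). It was 0.27 without the 3 libraries that stood apart. UTP9, a UTP-A gene, had 16.9, 27.6 and 13.2 CPM in the control and 31.7, 29.9 and 39.4 in overexpression, where every library was above every control. Its value in control 3 rests on 3 counts. Its log2 fold change was 0.62 (SE 0.320, adjusted p = 0.744), 0.43 without the 3 libraries and 1.07 without control 2. RRP43, an exosome ring subunit gene, had 26.7, 45.96 and 30.8 CPM in the control, 51.7, 47.3 and 67.8 in overexpression and 63.9, 34.9 and 47.97 CPM in the libraries labelled deletion. The log2 fold change in overexpression was 0.60 (SE 0.317, adjusted p = 0.744), 0.38 without the 3 libraries and 0.96 without control 2.

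On the low side, RRP6, the gene of the nuclear exosome exonuclease, had 22.5, 26.4 and 30.8 CPM in the control and 20.03, 18.9 and 4.38 in overexpression, with its lowest value, from 2 counts, in overexpression 3. Its log2 fold change was -0.77 (95% interval -1.68 to 0.15, adjusted p = 0.746), and -0.40 without the 3 libraries that stood apart. NOP12, a large subunit factor gene, had 40.8, 50.9 and 65.9 CPM in the control, 36.7, 25.2 and 45.9 in overexpression and 43.8, 40.96 and 50.6 CPM in the libraries labelled deletion. With overlapping groups, its log2 fold change in overexpression was -0.51 (SE 0.293, adjusted p = 0.746) and -0.30 without overexpression 2. RRP17, which encodes a large subunit exonuclease, had 49.3, 49.6 and 87.9 CPM in the control and 46.7, 50.4 and 24.1 in overexpression, and its log2 fold change of -0.48 (SE 0.348, adjusted p = 0.785) shrank to -0.16 without the 3 libraries.

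By role, the log2 fold changes of the 6 UTP-A genes ran from -0.0018 to 0.62 and those of the 3 UTP-B genes tested from -0.12 to 0.25. UTP5, the most abundant UTP-A gene, had 60.5, 66.2 and 43.96 CPM in the control, 65.1, 58.3 and 61.3 in overexpression and 51.4, 65.2 and 50.6 CPM in the libraries labelled deletion. UTP8, also of UTP-A, had 43.6, 55.8 and 65.9 CPM, then 51.7, 48.9 and 63.5 and 60.3, 77.4 and 31.98 CPM in the same order. The groups overlapped for both genes, and the log2 fold changes of overexpression against control were 0.050 and 0.020. UTP21, the most abundant UTP-B gene, had 43.6, 36.8 and 43.96 CPM in the control, 40.1, 34.7 and 37.2 in overexpression and 29.6, 59.2 and 63.95 CPM in the libraries labelled deletion. UTP13, also of UTP-B, had 40.8, 33.7 and 35.2 CPM, then 41.7, 39.4 and 50.3 and 60.9, 42.5 and 37.3 CPM in the same order. These groups overlapped as well, with log2 fold changes of -0.12 and 0.25 in overexpression. The 14 large subunit genes had a median of 0.07 (9 above 0), the 13 other small subunit genes tested -0.04 (6 above 0) and the 7 exosome genes -0.06 (3 above 0). Without the 3 libraries that stood apart the large subunit median turned to -0.13 (3 above 0) and that of the other small subunit genes to 0.062 (8 above 0), and the exosome median was -0.19 (3 above 0).

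**Figure D4:**
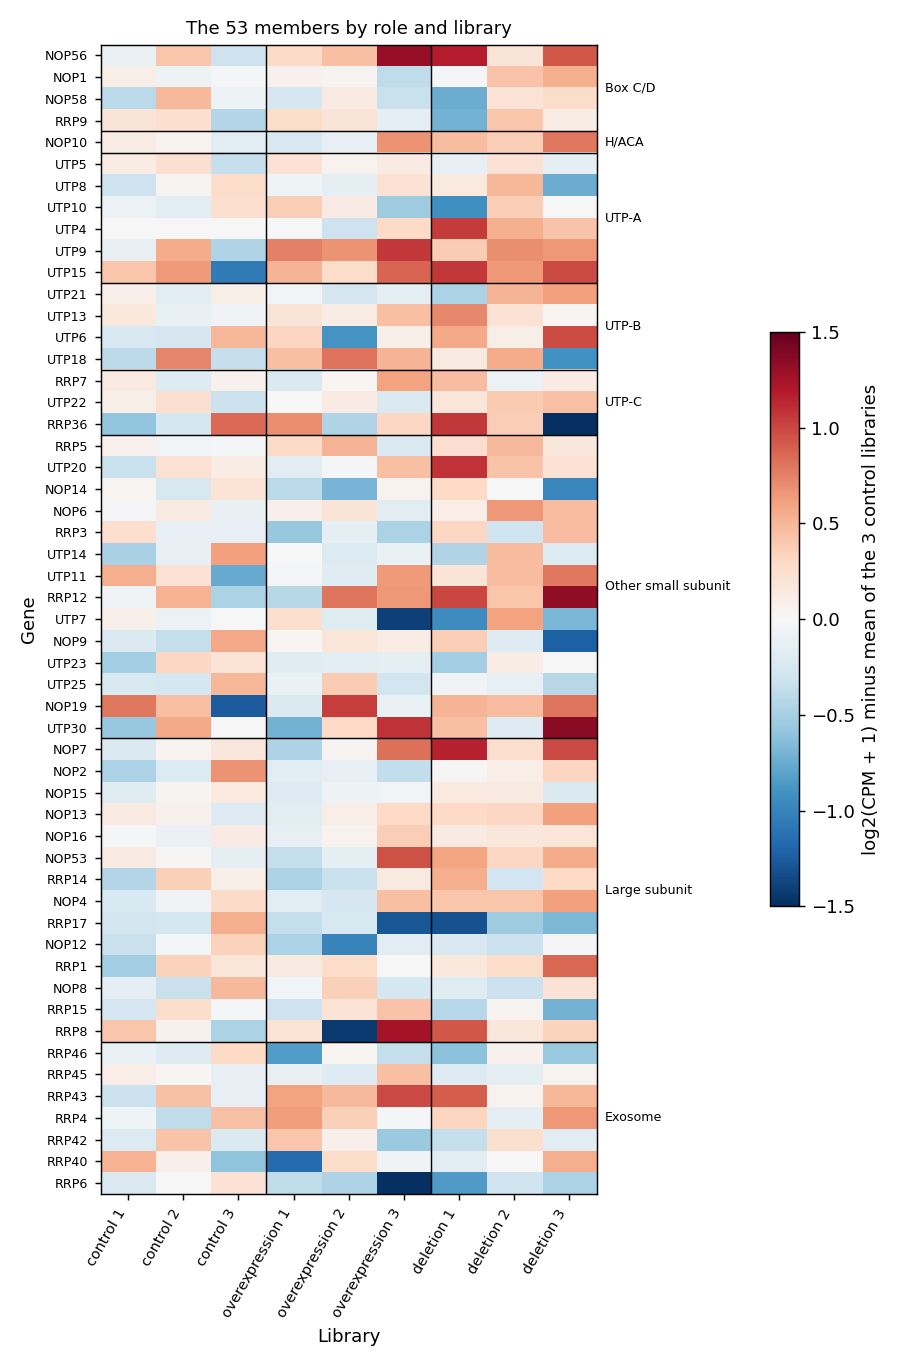
Each row is a member, grouped by role and ordered by mean level within a role, and each column a library; colour gives log2(CPM + 1) minus the mean of the 3 control libraries, with values beyond 1.5 in either direction drawn in the end colours (RRP36 in deletion 3 rests on 0 counts). NOP56 and NOP7 are red in overexpression 3, deletion 1 and deletion 3, and the exosome rows have no common colour in any library.

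The second comparison asked the same of the strain labelled as lacking YET3. Here, too, 0 of 49 members were called by edgeR's quasi-likelihood test, against 0.0196% of all genes tested, and 0 by the DESeq2 Wald test, against 0.0982% of all genes. The latter gave 4 members at an unadjusted p under 0.05 (8.16%, against 9.76% of all genes). Without the 3 libraries that stood apart the count was again 0, against 0.095% of all genes. By edgeR's test at an unadjusted p under 0.05, 4 of 49 members were higher (8.16%, against 7.01% of all genes) and 1 was lower, against 4.85% of all genes. The share of higher members is near that of all genes. The members as a group stood slightly above the control, with a median log2 fold change of 0.20 and 33 of 49 (67.3%) above 0, beside 0.011 and 50.8% over all genes tested. The median stayed between 0.15 and 0.24 in all 20 alternatives.

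This difference was present in each library labelled deletion. The members' median log2 difference from the control mean was 0.19, 0.22 and 0.30 in deletion 1 to 3, and lay between -0.10 and 0.06 in the other 6 libraries. Above all 3 control libraries lay 21 of 49 members in deletion 1, 19 in deletion 2 and 24 in deletion 3. Over all genes the shares above the controls were 37.4%, 24.2% and 36.4%, against 42.9%, 38.8% and 49.0% of members. Below all 3 controls lay 10, 4 and 10 members (20.4%, 8.16% and 20.4%, against 35.5%, 23.9% and 36.1% of all genes). Deletion 2, which did not stand apart, thus showed 19 members above and 4 below. In overexpression libraries 1 to 3, by comparison, 7, 7 and 19 members lay above the controls (14.3%, 14.3% and 38.8%, against 27.5%, 27.8% and 37.9% of all genes). Below the controls lay 16, 11 and 11 members (32.7%, 22.4% and 22.4%, against 27.2%, 26.5% and 38.8% of all genes). Without the 3 libraries that stood apart 38 of 50 members were above 0 in the comparison with control (median 0.17, beside -0.011 over all genes), where deletion 2 is left as the lone library of its strain and its spread is taken from the other strains.

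Groups did not overlap for 9 members that were higher in the libraries labelled deletion (18.4%, against 9.41% of all genes) and for 2 that were lower, RRP6 and RRP17 (4.08%, against 10% of all genes). The 9 were NOP4, NOP7, NOP10, NOP13, NOP16, NOP53, RRP5, UTP4 and UTP15, of which 5 are large subunit genes, 2 are UTP-A genes, 1 is the box H/ACA gene and 1, RRP5, acts on the precursors of both subunits. For UTP15 the value in control 3 rests on 1 count. None of the 7 exosome genes was among the higher ones, which says little at a share of 9.41% over all genes. UTP4, a UTP-A gene, had 35.2, 35.5 and 35.2 CPM in the control and 73.9, 51.6 and 47.97 CPM in the libraries labelled deletion, all above every control. Its value in control 3 rests on 8 counts. Its log2 fold change was 0.75 (95% interval 0.18 to 1.33, adjusted p = 0.400), and 0.54 without the 3 libraries that stood apart. RRP5 had 111, 104 and 106 CPM in the control, 130.2, 153 and 91.9 in overexpression and 128, 150.2 and 119.9 CPM in the libraries labelled deletion. The last 3 values lie above every control, at a log2 fold change of 0.32 (SE 0.234, adjusted p = 0.526).

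NOP7 had the largest positive value in this comparison, with 164 ± 22.2 CPM in the control and 294 ± 88.8 in the libraries labelled deletion (SD, n = 3 each; log2 fold change 0.85, 95% interval 0.14 to 1.57, adjusted p = 0.400). It was 0.27 without the 3 libraries that stood apart. NOP56 averaged 486 ± 158 CPM in the libraries labelled deletion (SD, n = 3), and its log2 fold change of 0.78 (adjusted p = 0.400) was 0.092 without the 3 libraries. Deletion 2 lay within the control range for NOP56 and just above it for NOP7. RRP12, which helps to export both subunits, had 23.9, 36.2 and 17.6 CPM in the control, 18.4, 44.1 and 39.4 in overexpression and 50.9, 33.4 and 63.95 CPM in the libraries labelled deletion. In the libraries labelled deletion its log2 fold change of 0.76 (SE 0.368, adjusted p = 0.417) fell to 0.14 without the 3 libraries, and deletion 2 lay within the control range.

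RRP17 had the most negative value. With 23.7, 40.96 and 37.3 CPM in the libraries labelled deletion, all were below every control, and the log2 fold change was -0.83 (95% interval -1.59 to -0.071, adjusted p = 0.400), and -0.40 without the 3 libraries that stood apart. RRP6 had 14.2, 21.2 and 18.7 CPM there, also below every control, at a log2 fold change of -0.57 (SE 0.399, adjusted p = 0.498) that stood at -0.27 without the 3 libraries and at -0.0077 with a term for them. RRP15, a large subunit factor gene, had 29.6, 42.9 and 35.2 CPM in the control and 26.02, 36.4 and 21.3 CPM in the libraries labelled deletion, with overlapping groups. Its log2 fold change was -0.38 (SE 0.310, adjusted p = 0.564), -0.050 without the 3 libraries, -0.17 without control 2 and -0.60 without deletion 2.

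Among the more abundant members of each role, NOP2, a ribosomal RNA methyltransferase gene, had 73.2, 88.3 and 163 CPM in the control, 90.1, 93.00 and 78.8 in overexpression and 103, 109 and 128 CPM in the libraries labelled deletion. UTP20, a large scaffold protein gene of the small subunit processome, had 57.7, 85.8 and 79.1, then 65.1, 72.5 and 101 and 156, 98.6 and 85.3 CPM in the same order of strains, highest in deletion 1. For these genes of subunit assembly, the log2 fold changes of the libraries labelled deletion were 0.14 and 0.65, and neither passed the test. RRP7, whose protein belongs to the UTP-C complex, had 83.03, 66.2 and 79.1 CPM in the control, 65.1, 77.2 and 116 in overexpression and 105, 71.3 and 82.6 CPM in the libraries labelled deletion. UTP22, its partner in that complex, had 35.2, 39.2 and 26.4 CPM, then 33.4, 36.3 and 28.4 and 37.8, 44.00 and 45.3 CPM in the same order. The log2 fold changes in the libraries labelled deletion were 0.22 and 0.23, and neither passed the test. RRP46, an exosome ring subunit gene, had 73.2, 68.6 and 96.7 CPM in the control, 43.4, 80.4 and 61.3 in overexpression and 50.9, 81.9 and 53.3 CPM in the libraries labelled deletion. RRP45, also of the exosome ring, had 71.8, 68.03 and 61.5 CPM, then 61.7, 58.3 and 91.9 and 58.5, 60.7 and 69.3 CPM in the same order. Groups overlapped for both, at -0.31 and -0.13. Of the 7 exosome genes 2 had values above 0 (median -0.13), whereas 4 of 6 UTP-A, 3 of 3 UTP-B, 9 of 13 other small subunit and 10 of 14 large subunit genes did. Without the 3 libraries that stood apart these counts were 3 of 7 exosome, 6 of 6 UTP-A, 3 of 3 UTP-B, 11 of 13 other small subunit and 9 of 14 large subunit genes, and with a term for them the exosome median was -0.0077. The difference between these role groups was not tested. For 28 of 49 members the 95% interval lay within -1 and 1 (57.1%, against 49.2% of all genes).

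**Figure D5:**
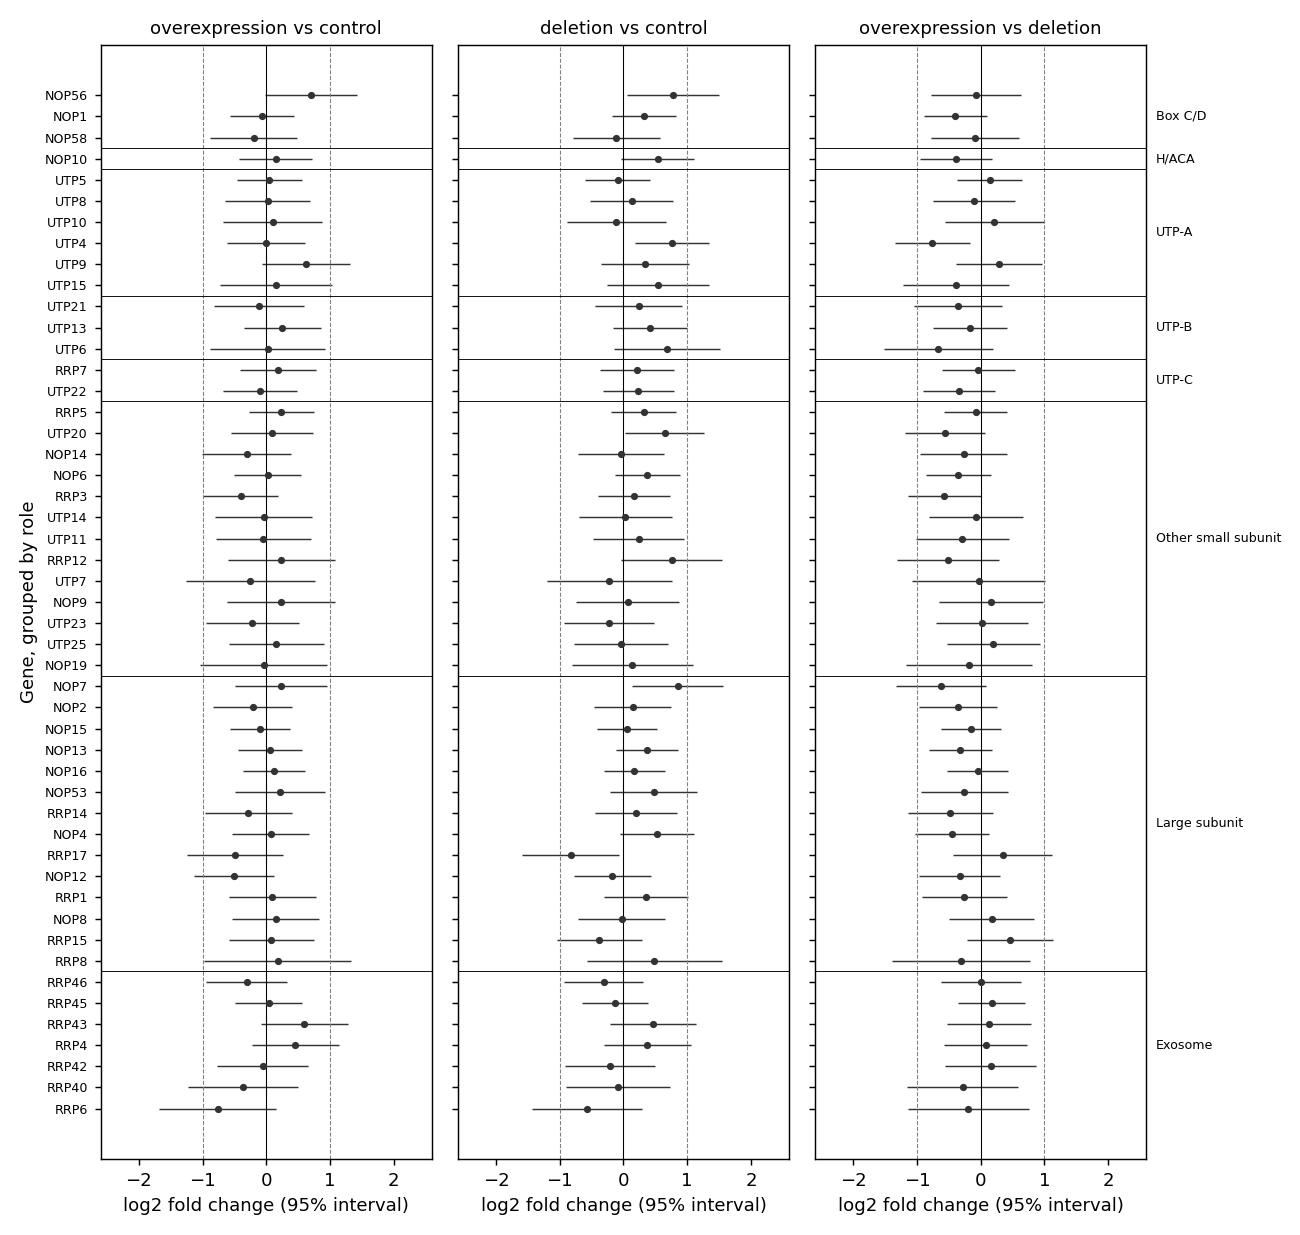
Log2 fold changes with 95% intervals of the 49 members tested, grouped by role, in the 3 comparisons; dashed lines mark 2-fold changes. In the comparison of the libraries labelled deletion with control most points lie right of 0 (33 of 49), in overexpression against deletion most lie left of it (35 of 49), and 0 members were called in any of them.

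Overexpression was also set directly against the libraries labelled deletion, a comparison that shares libraries with both of the others. No member was called (0 of 49, against 0.727% of all genes tested), with 0 without the 3 libraries that stood apart (against 1.44%) or with a term for them (against 2.08%). At an unadjusted p under 0.05 edgeR's quasi-likelihood test gave 0 members higher (against 3.95% of all genes) and 1 lower (against 2.81%), and the DESeq2 Wald test gave 1 in either direction (2.04%, against 5.17% of all genes). The median log2 fold change was -0.18, with 14 of 49 above 0, beside -0.015 over all genes tested, and it stood at -0.26 without the 3 libraries that stood apart. Groups did not overlap for 3 members, NOP2, UTP4 and UTP22, all lower in overexpression (6.12%, against 4.18% of all genes), and for 0 that were higher, against 5.3% of all genes. For 31 of 49 members the 95% interval lay within -1 and 1 (63.3%, against 56.0% of all genes).

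UTP4 had the most negative value and the lowest p of the members, with 35.05, 28.4 and 43.8 CPM in overexpression against 73.9, 51.6 and 47.97 CPM in the libraries labelled deletion. Its log2 fold change was -0.76 (95% interval -1.34 to -0.17, adjusted p = 0.517), and -0.50 without deletion 1. UTP6, a UTP-B gene, had 15.5, 15.3 and 26.4 CPM in the control, 23.4, 9.46 and 19.7 in overexpression and 27.8, 19.7 and 37.3 CPM in the libraries labelled deletion. Overexpression against these gave -0.66 (adjusted p = 0.820), -0.28 without the 3 libraries that stood apart and -0.33 without overexpression 2. NOP7, with the library values above, gave -0.62 (adjusted p = 0.782), -0.43 without the 3 libraries, -0.34 with a term for them, -1.04 without overexpression 3 and -0.36 without overexpression 1. RRP15, RRP17 and UTP9 had the largest positive values. RRP15 had 28.4, 40.98 and 48.1 CPM in overexpression, overlapping the libraries labelled deletion, and gave 0.46 (adjusted p = 0.855), which turned to -0.066 without the 3 libraries. RRP17 gave 0.34 (adjusted p = 0.900), between 0.064 without deletion 1 and 0.60 without overexpression 3. UTP9 had 24.2, 30.3 and 29.3 CPM in the libraries labelled deletion, overlapping the overexpression libraries, and gave 0.29 (adjusted p = 0.905), 0.020 without the 3 libraries and 0.16 without deletion 1.

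Other genes of ribosome production were not called either. Of 27 further small subunit processome genes tested, 42 large subunit assembly genes, 10 partners of the small nucleolar particles, 9 exosome partners, 15 genes of RNA polymerase I and its factors, and 137 cytosolic ribosomal protein genes, 0 were called in any comparison by edgeR's quasi-likelihood test. Over all genes 0.845% were called in overexpression against control, 0.0196% in the libraries labelled deletion and 0.727% between them. At such shares 0 calls in a short list says little about it. In the libraries labelled deletion the medians against control were 0.015, 0.22, 0.058, 0.25, 0.21 and 0.11 in this order, beside 0.20 for the UTP, NOP and RRP genes. They were 0.24, 0.19, 0.10, 0.18, 0.040 and 0.13 without the 3 libraries that stood apart, so the small subunit and RNA polymerase I lists moved most. In overexpression the medians were -0.013, 0.04, 0.014, -0.053, 0.25 and 0.078, beside 0.04. They became -0.033, -0.0011, 0.066, 0.11, 0.032 and 0.075 without the 3 libraries, which turns the sign for the large subunit assembly genes and the exosome partners. RPA135, a large subunit gene of RNA polymerase I, had 121, 139 and 87.9 CPM in the control, 174, 154 and 309 in overexpression and 318, 182 and 279.8 CPM in the libraries labelled deletion, and was highest in the same 3 libraries as NOP56 and NOP7. REA1, a large subunit assembly gene, had 364, 387 and 334 CPM in the control, 347, 309 and 184 in overexpression and 204, 331 and 226 CPM in the libraries labelled deletion, and was lowest in overexpression 3, deletion 1 and deletion 3. RPA135 and REA1 thus went opposite ways in the libraries that stood apart. HMO1, of the RNA polymerase I list and more abundant than RPA135, had 409, 517 and 538 CPM in overexpression 3, deletion 1 and deletion 3. In the other libraries it lay between 471 and 576 CPM. NMD3, a large subunit assembly gene, had 177, 175 and 147 CPM in the same 3 libraries and 161 to 177.5 CPM in the others.

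Among genes known to regulate ribosome biogenesis there was no call (0 of 11 tested in each comparison). Over all genes 0.845% were called in overexpression against control, 0.0196% in the libraries labelled deletion and 0.727% between them. At such shares 0 of 11 says little about this list. The list's median log2 fold change was -0.077 in overexpression (4 of 11 above 0) and 0.15 in the libraries labelled deletion (6 of 11 above 0). Without the 3 libraries that stood apart these medians were -0.16 and -0.24. DOT6, the gene of a repressor that binds PAC, had 272, 366 and 281 CPM in the control, 334, 287 and 173 in overexpression and 134, 243 and 226 CPM in the libraries labelled deletion. Its lowest values were thus in deletion 1 and overexpression 3. Its log2 fold changes against control were -0.22 and -0.63 (adjusted p = 0.900 and 0.414 by edgeR's quasi-likelihood test). In the libraries labelled deletion 6 of the 11 genes of this list went the other way from DOT6. A link between DOT6 and the levels of the members was not tested. Of 22 stress-induced genes, the kind that usually moves opposite to ribosome biogenesis in yeast, the chaperone gene HSP26 was called in overexpression (1 of 22, against 0.845% of all genes). Without the 3 libraries that stood apart YGP1, a cell wall protein gene, was called as well (2 of 22, against 3.15% of all genes; log2 fold change 0.88, adjusted p = 5.0e-04 by edgeR's quasi-likelihood test). HSP26 had 73.2, 42.3 and 48.4 CPM in the control, 227, 230.1 and 182 in overexpression and 51.4, 48.5 and 55.96 CPM in the libraries labelled deletion. It was higher in overexpression than in control (log2 fold change 1.96, SE 0.256, adjusted p = 0.0022) and than in the libraries labelled deletion (2.04, adjusted p = 0.0013). The stress list had a median of -0.098 in overexpression and -0.048 in the libraries labelled deletion.

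Genes outside the members that hold both promoter cores were set beside them. In the libraries labelled deletion the 270 such genes tested had a median log2 fold change of 0.20 with 66.7% above 0, beside the members with both cores (0.18, 68.8% of 32) and without both (0.22, 64.7% of 17). The 4687 remaining genes had a median of -0.0021 with 49.8% above 0. Leaving out the 3 libraries that stood apart gave medians of 0.145 for other genes with both cores, 0.21 and 0.11 for members with and without both, and -0.018 for the rest. In overexpression the medians were 0.097 for the other genes with both cores, 0.02 for members with both and 0.079 for members without, and 0.040, -0.10 and 0.074 without the 3 libraries. No gene with both cores was called in the fit of all 9 libraries. Over all genes 0.845% were called in overexpression against control, 0.0196% in the libraries labelled deletion and 0.727% between them. At such shares 0 calls says little about genes with both cores. The other genes with both cores were not screened for the further ribosome production genes listed above, and can include them. Leaving out the 3 libraries, 6 of 279 other genes with both cores were called in overexpression against control, where 3.15% of all genes were.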

How the data were processed

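For every library the authors deposited a table of raw counts, 1 row per open reading frame. The tools cutadapt and UMI-tools and build R64 are named in the submitters' processing notes. The aligner was not given in the sources used here, nor were the counting window and use of strand. Symbols came from the R64 annotation, which matched 5956 of 6629 identifiers. The 2 appended rows that repeat identifiers (0.0372% to 0.0569% of counts) were left out. Counts were scaled by TMM, filtered with filterByExpr (at least 10 counts in enough libraries, 15 in all) and tested by edgeR's quasi-likelihood test (edgeR 4.0.16, limma 3.58.1, R 4.3.3) in 1 fit of all 9 libraries. P-values were adjusted by Benjamini-Hochberg over the 5090 genes tested, with a threshold of 0.05. Intervals of log2 fold changes are 95% intervals from the fit. The 20 alternatives included DESeq2 1.42.0. The fitting script was tested on simulated data.

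The members, lists and tests were chosen with earlier results of these data known. Values in every library are given for the 2 most abundant members of each role and for the 3 largest changes in each direction in each comparison; other members named individually were chosen after their values were seen.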

Additional observations from a re-analysis of the deposited data

How the results depend on the processing

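In all 20 alternatives 0 members were called in any comparison; the lowest adjusted p was 0.0733, for NOP7 in the libraries labelled deletion against control without deletion 2 (edgeR's quasi-likelihood test). The median of the members against control stayed between 0.15 and 0.24 for the libraries labelled deletion. For overexpression against control it was -0.063 without overexpression 3, deletion 1 and deletion 3 and -0.033 with a term for them, and between -0.071 and 0.074 with each library left out in turn. For overexpression against the libraries labelled deletion it was -0.26 without the 3 libraries, and between -0.253 and -0.113 with each library left out in turn. RRP15 in that comparison turned from 0.46 to -0.066 without the 3 libraries; the cause was not tested. No other log2 fold change of the members with the largest changes reversed. Over all genes the number called ranged from 11 to 166 in overexpression against control (43 in the reported fit), from 1 to 5 (1) in the libraries labelled deletion and from 15 to 106 (37) between them. Bases before the start alone gave 81.1% of members with a PAC core and 73.6% with an RRPE core.

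Deviations of libraries with the same replicate number correlated between -0.46 and 0.51, with both signs. Libraries with different numbers reached -0.712 (overexpression 3 with deletion 2) and 0.594 (overexpression 1 with deletion 2). These values also hold the split of the libraries that stood apart, so they cannot show whether the replicate numbers pair the libraries. With the replicate number as a block, 0 members were called, the medians were 0.017, 0.19 and -0.20 in the order of the report, and 27, 1 and 27 genes were called over all. Depth limits the rarest members: 3 counts stood for 1.84 to 13.4 CPM.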
